A study of Mus musculus with 6 samples.

Results

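Structural RNAs are short transcripts that are not translated and that work as the RNA part of a ribonucleoprotein. The set described here holds 7 mouse genes of that kind, chosen by name as structural RNAs that are neither small nucleolar RNAs (snoRNAs) nor Cajal body RNAs (scaRNAs), with the contrast of irisin knockout and wild type arrays in view. Of the 7 genes, 6 had a row among the 23185 named genes of the array table, namely Rpph1, Rmrp, Rn7sk, Rnu11, Rny1 and Terc. Rny3, the Y3 RNA gene, had no row under its symbol or its gene number and was not analysed here. Because the choice was made with this contrast known, the knockout and wild type values of the 6 RNAs are given as a description and without a test.

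Rpph1 is the RNA subunit of RNase P, the nuclear enzyme that cuts the 5′ leader from precursor transfer RNAs. Rmrp is the RNA subunit of RNase MRP, a related particle that shares most of its proteins with RNase P and takes part in the cutting of precursor ribosomal RNA. Rn7sk, the 7SK RNA, holds the elongation kinase P-TEFb in an inactive particle, and Rnu11, the U11 RNA, recognises the 5′ splice site of the minor class of introns. Rny1 is a Y RNA, bound by the Ro60 and La proteins, and Terc is the template RNA of telomerase. RNA polymerase III makes the RNase P, RNase MRP, 7SK and Y RNAs, whereas RNA polymerase II makes U11 and the telomerase RNA.

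The arrays came from hearts of FVB mice, an inbred strain, with 3 arrays for irisin knockout animals and 3 for wild type animals. The knockout line was made by injecting zygotes with Cas9 mRNA and 5 guide RNAs, and littermates served as controls. Animals of both groups ate chow with 10% fat for 24 weeks; no age was given. Irisin is a hormone cleaved from the protein that Fndc5 encodes, and the series title places the comparison in the context of insulin resistance and ischaemic heart injury. Some label fields name cardiomyocytes and another names myocardium, so whether isolated cells or tissue were used is not settled here. The labels do not say that the arrays of a group came from different animals, so p-values cover only the spread between arrays, and that spread may be technical. In such bulk RNA, fewer cells of a type and less RNA per cell cannot be told apart. Any difference in RNA preparation between the groups could not be told apart from genotype either, and none was tested.

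The labels were first checked on the targeted gene. Fndc5 stood at 7.68, 5.49 and 5.45 log2 units on knockout arrays 1, 2 and 3, against 8.42, 8.40 and 7.83 on wild type arrays 1, 2 and 3. Which part of Fndc5 was removed is not given in the sources used here, so a probe outside that part would check nothing. Knockout replicate 1 lay well above the other knockout arrays, though below every wild type array. Array medians ran from 2.13 to 2.28, and all values from 0.093 to 12.96 log2 units.

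Sequence that borders 3 of the RNAs is shown first, because the values below compare each of these RNAs with the gene beside it. Rpph1 (chr14:50807447-50807771), Rmrp (chr4:43492785-43493059) and Rn7sk (chr9:78175302-78175633) are each transcribed from the minus strand, as is known for these genes. Each lies head to head with a plus-strand gene: Parp2 starts 125 bases beyond the RNase P gene, Ccdc107 280 bases beyond the RNase MRP gene and C920006O11Rik 280 bases beyond the 7SK gene. The bases between them came from RefSeq promoter windows of those neighbours (GRCm38.p6), read on the minus strand so that each RNA would start to the right of the last base. Capitals mark matches on either strand to the octamer ATGCAAAT, to a core of the proximal sequence element written as CACCNTAA, and to TTATA.
Rpph1 upstream, chr14:50807772-50807896, reaching the RNA: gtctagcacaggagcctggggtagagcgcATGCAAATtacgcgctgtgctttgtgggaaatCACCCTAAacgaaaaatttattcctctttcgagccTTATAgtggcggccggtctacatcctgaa
Rmrp upstream, chr4:43493115-43493339, ending 55 bases before the RNA: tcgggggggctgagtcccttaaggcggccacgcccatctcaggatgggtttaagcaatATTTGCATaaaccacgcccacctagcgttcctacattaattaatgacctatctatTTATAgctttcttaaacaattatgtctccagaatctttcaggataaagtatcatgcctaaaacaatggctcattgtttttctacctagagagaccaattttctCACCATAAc
Rn7sk upstream, chr9:78175664-78175913, ending 30 bases before the RNA: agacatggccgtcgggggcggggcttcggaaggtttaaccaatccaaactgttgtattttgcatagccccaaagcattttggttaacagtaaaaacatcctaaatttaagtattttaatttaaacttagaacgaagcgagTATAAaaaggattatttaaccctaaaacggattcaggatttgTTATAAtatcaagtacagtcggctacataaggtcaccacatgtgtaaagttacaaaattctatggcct
The opening of the RNase P RNA gene itself, the member with the largest difference, also lay within the window of Parp2, and is shown without capitals since no motif was sought in it.
Rpph1 gene, its first 106 bases, chr14:50807666-50807771: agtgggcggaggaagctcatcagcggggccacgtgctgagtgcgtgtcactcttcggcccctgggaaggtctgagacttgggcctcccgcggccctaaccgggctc

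The RNase P and RNase MRP genes held the proximal sequence element core at the same place, bases 64 to 57 before the RNA. Upstream of Rpph1 the octamer lay at bases 96 to 89 and TTATA at bases 29 to 25 before the RNA. The octamer near Rmrp lay at bases 222 to 215, on the opposite strand. TTATA near Rmrp lay at bases 167 to 163, on the strand of the RNA. Among 32851 RefSeq promoter windows cut to the 125 bases before the start, 0.825% held the octamer, 0.764% the core and 12.3% TTATA, with either strand counted. At 225 bases, the length of the Rmrp stretch, the shares were 1.47%, 1.43% and 20.6%. The Rn7sk stretch held neither the octamer nor the core in these letters, and TTATA matched in 3 places, of which the pair at bases 98 to 93 overlap. At its length of 250 bases, TTATA was in 22.8% of windows. The 55 bases next to Rmrp and the 30 next to Rn7sk were missing from the windows. Bases 29 to 25, where Rpph1 held TTATA, could thus not be seen for Rmrp and Rn7sk.

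All 6 RNAs read lower on average in the knockout, by amounts from 3.03 down to 0.26 on the log2 scale. The median of their differences was -1.11, against -0.05 over all 23185 genes. On 5 of the 6 RNAs every knockout array lay below every wild type array, while 17% of all genes tested had groups that did not overlap in that direction. The RNAs were chosen on this contrast, so nothing is read from that count.

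RNase P RNA had the largest difference of the set. Rpph1 (Entrez gene 85029) stood at 7.18, 7.26 and 7.15 log2 units on knockout arrays 1, 2 and 3, against 9.96, 10.49 and 10.21 on wild type arrays 1, 2 and 3. The knockout arrays were close together and all far below the wild type arrays. The means were 7.20 ± 0.06 for knockout and 10.22 ± 0.26 for wild type arrays (SD, n = 3 each), a difference of -3.03 (SE 0.15), or 8.14-fold lower. Only 12 of the 23185 genes had a more negative difference, Rpph1 being number 13 from the bottom.

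The RNA of the sister enzyme moved the same way by a smaller amount. Rmrp (Entrez gene 19782) read 9.77, 9.57 and 9.46 on knockout arrays 1, 2 and 3, against 10.66, 11.26 and 11.25 on wild type arrays 1, 2 and 3. No knockout value reached a wild type value, and wild type replicate 1 was the lowest of its group. The difference was -1.46 (SE 0.18), or 2.75-fold lower, with means of 9.60 ± 0.16 for knockout and 11.05 ± 0.35 for wild type arrays (SD, n = 3 each).

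U11 was next to RNase P RNA in size. Rnu11 (Entrez gene 353373), on chr4:132270079-132270186, read 6.78, 6.52 and 6.77 on knockout arrays 1, 2 and 3, against 8.70, 9.53 and 9.47 on wild type arrays 1, 2 and 3. The gap between the groups was wider than the range within either. Means were 6.69 ± 0.15 for knockout and 9.23 ± 0.46 for wild type arrays (SD, n = 3 each), a difference of -2.54 (SE 0.22), or 5.82-fold lower.

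The differences of Rny1, Terc and Rn7sk were nearer to 0. Rny1 (chr6:47788070-47788180) read 8.86, 8.75 and 8.78 on knockout arrays 1, 2 and 3, against 9.38, 10.00 and 9.29 on wild type arrays 1, 2 and 3, a difference of -0.76 (SE 0.19), or 1.70-fold lower. Its knockout arrays lay within a narrow band below all wild type arrays. Terc (chr3:96414437-96414833) read 1.07, 1.19 and 1.35 on knockout arrays 1, 2 and 3, against 1.43, 1.82 and 1.75 on wild type arrays 1, 2 and 3, a difference of -0.46 (SE 0.14). All of these Terc values lie under the array medians, where signal is not told apart from background. Rn7sk read 12.56, 12.02 and 12.26 on knockout arrays 1, 2 and 3, against 11.86, 12.96 and 12.80 on wild type arrays 1, 2 and 3. The value on wild type replicate 2 is the highest of the whole table, and whether such bright values are compressed was not tested. The groups overlapped, because wild type replicate 1 was lower than every knockout array, and the difference was -0.26 (SE 0.28, 95% interval -0.90 to 0.38). Without wild type replicate 1 it was -0.60, without wild type replicate 2 it was -0.05 and without wild type replicate 3 it was -0.13. Without knockout replicate 1 or 2 it was -0.40 and -0.12, so single arrays set its size.

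**Figure D1:**
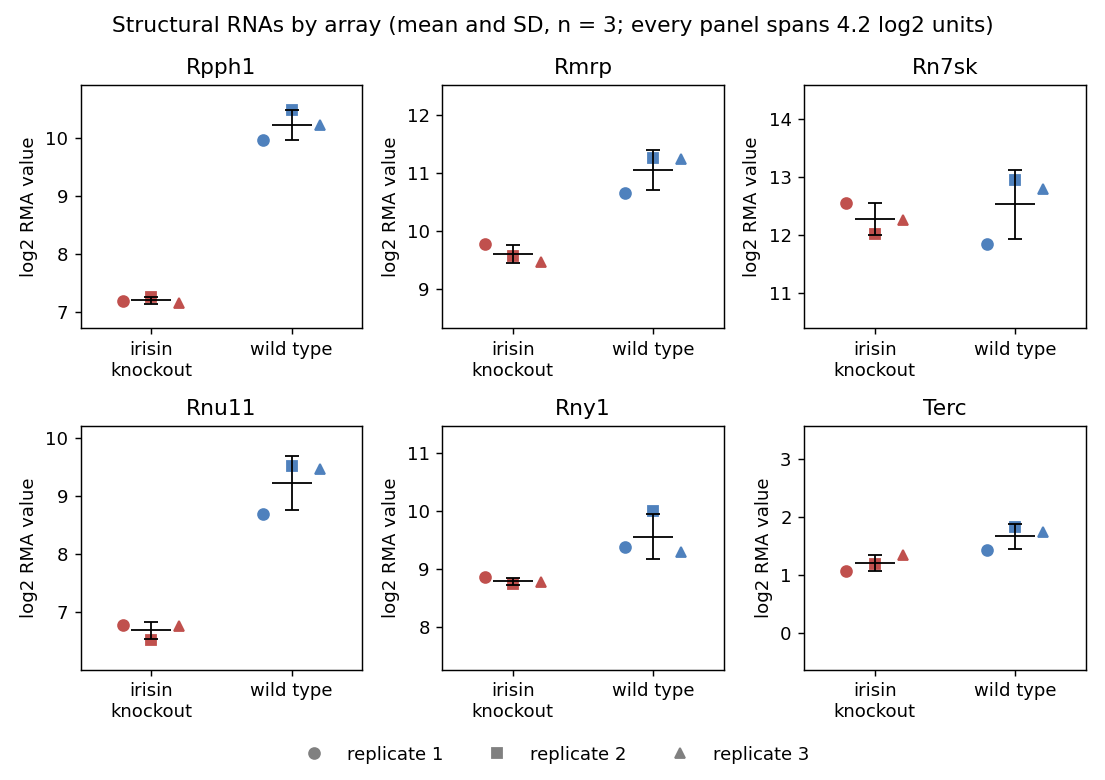
Log2 RMA value (vertical axis) of Rpph1, Rmrp, Rn7sk, Rnu11, Rny1 and Terc on each array, with irisin knockout at the left and wild type at the right of each panel. Points are arrays, shaped by replicate number, horizontal lines are group means and bars are the SD (n = 3); the groups overlap for Rn7sk and for no other of the 6 RNAs.

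Within the wild type group the RNAs kept a similar order of arrays. Wild type replicate 2 was the highest wild type array for 6 of the 6 RNAs, and replicate 1 was the lowest for 5, Rny1 being the exception. Each RNA was centred on its own mean and the 6 were averaged: the knockout arrays then stood at -0.63, -0.79 and -0.71 log2 units, and the wild type arrays 1, 2 and 3 at 0.33, 1.01 and 0.79. The wild type arrays were thus spread over a wider range than the knockout arrays, as were the snoRNAs described next.

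Guide RNAs, namely snoRNAs and scaRNAs, which are outside the set described here, were mostly lower in the knockout. Of 106 snoRNAs, which guide the modification of ribosomal RNA, 82 fell and 0 rose, with a median of -1.45; here and below, rose and fell mean an adjusted p under 0.05 in limma. Of 8 scaRNAs, which guide the modification of spliceosomal RNA, 7 fell, with a median of -1.24. Of the 529 microRNA genes 10.4% fell, against 6.18% of all genes, and the microRNA median was -0.12. Their mean level was 1.47 to 1.55 in the knockout and 1.64 to 1.77 in wild type, under the array medians. Signal is not told apart from background there, so the microRNA share is not compared with that of the snoRNAs. Protein-coding genes had a median of -0.03, with 11.9% higher and 5.89% lower. The mean level of the snoRNAs was 3.88, 4.06 and 4.04 on knockout arrays 1, 2 and 3, against 5.25, 5.63 and 5.44 on wild type arrays 1, 2 and 3, so wild type replicate 2 was again the highest and replicate 1 the lowest of that group.

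Other structural RNAs with a row went down or did not pass the test, and 0 of them rose. Of the 6 on the list with a row, 2 fell (33.3%, against 6.18% of all genes), with a median difference of -0.25. Rnu3a, a gene of the U3 RNA that takes part in ribosomal RNA processing, read 1.78, 2.05 and 2.43 on knockout arrays 1, 2 and 3, against 3.88, 4.29 and 3.84 on wild type arrays 1, 2 and 3, a fall by 1.91 (SE 0.19, limma adjusted p = 0.000737). RefSeq types this gene as a small nuclear RNA, and it is listed here for that reason, although U3 belongs to the snoRNAs. Knockout arrays 1 and 2 lie under the array medians for Rnu3a, so the size of its fall is uncertain. Rprl2, annotated as an RNase P RNA-like gene, fell by 1.36 (SE 0.17, adjusted p = 0.00152), to 4.66 ± 0.24 in the knockout against 6.03 ± 0.22 in wild type (SD, n = 3 each, limma). Its relative Rprl1 gave -0.20 (95% interval -0.64 to 0.24, adjusted p = 0.557). Whether probes of these 2 genes also bind Rpph1 RNA is not given in the sources used here, so their values are uncertain. Of the others, Rnu5g, a U5 gene, gave -0.25 (95% interval -0.62 to 0.12), the vault RNA gene Vaultrc5 -0.26 (-0.54 to 0.02), and Rnu7, the RNA that processes histone messenger RNA ends, 0.00 (-0.38 to 0.38). Those 3 genes read below the array medians on every array. A 5S ribosomal RNA gene, n-R5s136, named after its values were seen and also an RNA polymerase III product, fell by 2.16 (SE 0.25, adjusted p = 0.00133), to 7.61 ± 0.16 in the knockout against 9.77 ± 0.56 in wild type (SD, n = 3 each, limma).

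**Figure D2:**
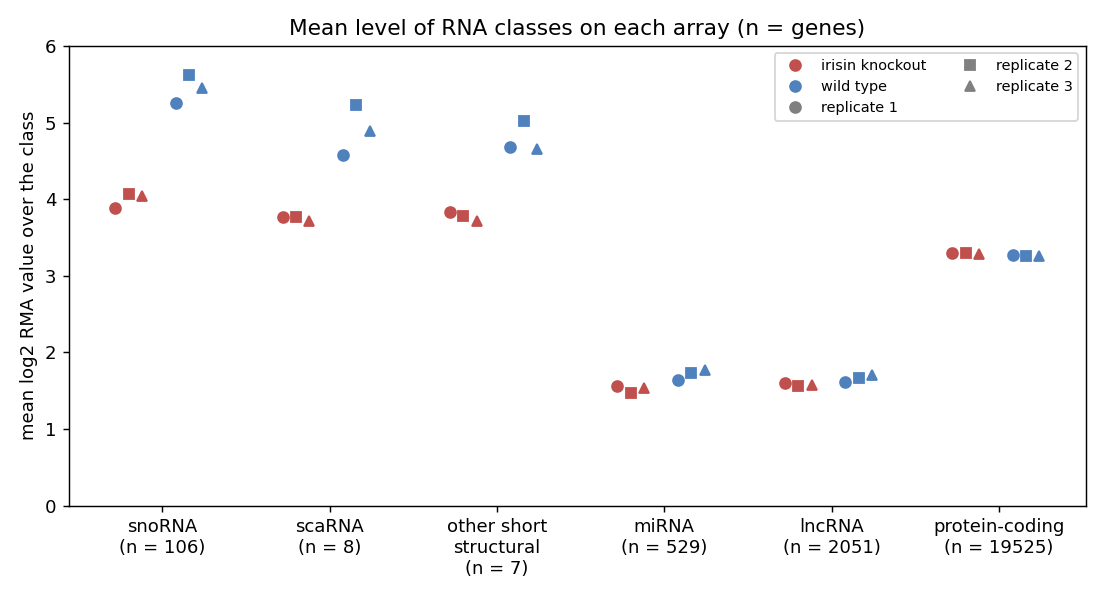
Mean log2 RMA value over each RefSeq class of RNA (vertical axis) on each array, knockout at the left and wild type at the right of each class, with n the number of genes without the 6 structural RNAs. The class of other short structural RNAs follows RefSeq types and so includes the snoRNA genes Rnu3a and Snord73b. The knockout arrays lie between 3.88 and 4.06 and the wild type arrays between 5.25 and 5.63 for snoRNAs, while protein-coding genes lie at 3.28 to 3.30 in the knockout and 3.26 to 3.28 in wild type.

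Of 11 genes for the proteins of RNase P and RNase MRP 5 rose, 0 fell and 6 did not pass, against 10.4% of all genes called higher, and the median difference was 0.57 against -0.05 over all genes. Rpp40 read 2.93, 2.94 and 3.08 log2 units on knockout arrays 1, 2 and 3, against 2.00, 1.60 and 1.74 on wild type arrays 1, 2 and 3. The rise was 1.20 log2 units (SE 0.14, adjusted p = 0.00116 in limma), but its wild type values lie under the array medians, where signal is not told apart from background, so the size of the rise is uncertain. Pop4, a core subunit of both enzymes, read 5.29, 4.98 and 4.93 on knockout arrays 1, 2 and 3, against 3.81, 3.90 and 4.03 on wild type arrays 1, 2 and 3, and rose 2.22-fold (adjusted p = 0.00138). In both genes the groups did not overlap.

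Rpp30, another core subunit, rose 1.88-fold to 4.88 ± 0.11 in the knockout, against 3.97 ± 0.21 in wild type (SD, n = 3 each, limma adjusted p = 0.00392). Rpp38 and Rpp14 rose 1.67-fold and 1.52-fold (limma adjusted p = 0.0334 and 0.0337). Of the rest, Pop1, the largest subunit, gave 0.01 (95% interval -0.35 to 0.36), Pop5 0.03 (-0.24 to 0.30), Rpp21 0.03 (-0.22 to 0.27), Pop7 0.29 (-0.27 to 0.85), Rpp25 0.57 (0.09 to 1.04) and Rpp25l 0.11 (-0.16 to 0.38). The means of Pop1 (1.89 in each group) and the wild type mean of Pop7 (1.93) lie under the array medians, so the differences of these genes are uncertain. All 11 differences were above 0, the smallest being that of Pop1. Only 3 genes rose when knockout replicate 1, knockout replicate 2 or wild type replicate 3 was left out, and Rpp38 lost its call there and when wild type replicate 2 was left out (adjusted p up to 0.123).

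RNase P of mitochondria needs no RNA subunit, and its genes were also listed. Of these 3 genes 2 rose (66.7%, against 10.4% of all genes called higher). Prorp, the nuclease, rose 1.54-fold (limma adjusted p = 0.0174) and Trmt10c, a methyltransferase subunit, 1.39-fold (adjusted p = 0.0259). Hsd17b10 gave 0.19 (95% interval -0.24 to 0.62). Leaving out knockout replicate 2, knockout replicate 3 or wild type replicate 3 ended the call of Prorp (adjusted p up to 0.0700), and that of Trmt10c ended with quantile normalization (0.0789) and in 5 of the 6 fits that left out an array, all but that of wild type replicate 2 (0.0550 to 0.101).

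**Figure D3:**
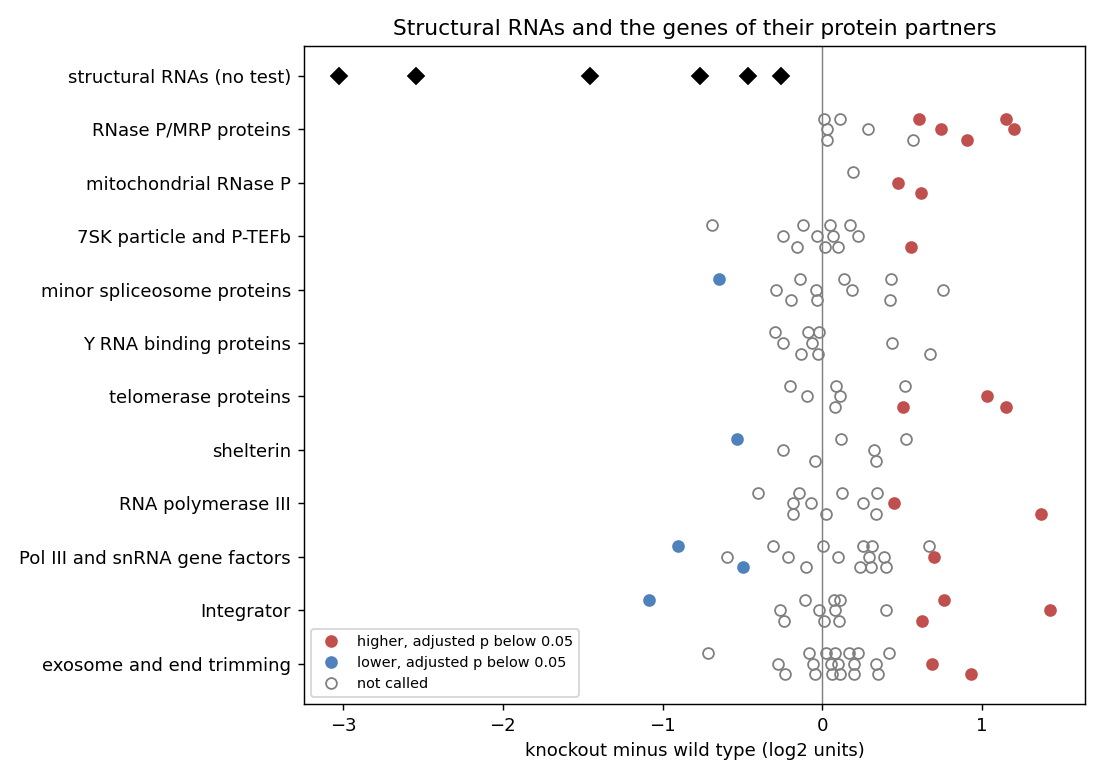
Difference of knockout minus wild type in log2 units (horizontal axis) for the 6 structural RNAs (black diamonds, no test) and for each gene of 11 partner lists (circles, spread vertically for legibility). Filled circles passed the limma threshold, red for higher and blue for lower in the knockout; the 6 RNAs lie from -3.03 to -0.26, and the 11 genes of RNase P and MRP proteins from 0.01 to 1.20.

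Over all 11 lists of partners, 19 of 126 genes rose and 5 fell, or 15.1% and 3.97%, against 10.4% and 6.18% of all genes. Without knockout replicate 1 the share that rose was 7.14%, against 6.62% of all genes, and without knockout replicate 2 it was 5.56% against 6.05%. The gap over all genes thus depends on these knockout arrays. In the 7SK and P-TEFb list 1 of 12 genes rose and 0 fell, with a median of 0.03. That gene, Ccnt1, the cyclin of P-TEFb, rose 1.47-fold (limma adjusted p = 0.0382) and lost its call with quantile normalization (0.126) and in 5 of the 6 fits that left out an array, all but that of knockout replicate 3 (0.0538 to 0.132). The 7SK-binding proteins Larp7 and Mepce gave -0.12 (95% interval -0.43 to 0.20) and 0.10 (-0.19 to 0.39). Among 11 minor spliceosome genes Snrnp48, a protein of the U11/U12 particle, fell by 0.65 (SE 0.12, limma adjusted p = 0.00926), to 4.03 ± 0.13 in the knockout against 4.67 ± 0.11 in wild type (SD, n = 3 each). The other 10 did not pass, and the list median was -0.03. With median centring, or without wild type replicate 1, 2 of the 11 passed as higher.

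Of 9 genes for Y RNA binding proteins 0 passed in limma, against 16.6% of all genes in either direction. Puf60 (limma adjusted p = 0.136) and Ybx1 (0.180) had the lowest p. Ybx1 read 0.72 to 1.27 over all arrays, under the array medians, so its difference is uncertain. Ro60 gave -0.09 (95% interval -0.38 to 0.21) and Ssb, which encodes La, -0.03 (-0.28 to 0.23). At an unadjusted p under 0.05 there was 1 gene, Puf60, whose difference was 0.44 (95% interval 0.04 to 0.83). Without wild type replicate 1, 2 of the 9 genes passed as higher, Puf60 among them (adjusted p = 0.0403).

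Among telomerase proteins 3 of 9 rose (33.3%, against 10.4% of all genes called higher) and 0 fell. Tgs1, which adds methyl groups to the cap of the telomerase RNA and of small nuclear RNAs, rose 2.22-fold to 5.28 ± 0.16 in the knockout, against 4.13 ± 0.09 in wild type (SD, n = 3 each, limma adjusted p = 0.00104). Dkc1, the pseudouridine synthase that binds Terc and the H/ACA class of snoRNAs, rose 2.04-fold (adjusted p = 0.0135), and its partner Nop10 1.42-fold (0.0441). Dkc1 lost its call without knockout replicate 1 or 2 (0.0592 and 0.0626), and Nop10 with quantile normalization (0.313) and without any array other than wild type replicate 1 (0.0660 to 0.152). Tert, the catalytic subunit, gave -0.10 with adjusted p = 0.633. It read 1.11 to 1.33 over all arrays, under the array medians, where signal is not told apart from background. Of 7 shelterin genes, which cover telomere ends, 1 fell (14.3%, against 6.18% of all genes called lower). That gene, Terf1, fell by 0.53 (limma adjusted p = 0.0491). Terf1 lost that call with median centring (0.110) and with a variance trend (0.0607). The call was also lost in 5 of the 6 fits that left out an array, all but that of knockout replicate 3 (0.0544 to 0.172).

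Counts among genes that make such RNAs lay near those of all genes, with 2 of 12 for RNA polymerase III (16.7%) and 3 of 17 for its transcription factors and those of small nuclear RNA genes (17.6%), against 16.6% in either direction. Of the 12 genes of RNA polymerase III, Polr3g rose 2.58-fold, to 3.69 ± 0.31 in the knockout against 2.32 ± 0.16 in wild type (SD, n = 3 each, limma adjusted p = 0.00175). Its wild type values, 2.14 to 2.43, lie close to the array medians, so the size of its rise is uncertain. Crcp rose 1.36-fold (adjusted p = 0.0397) and lost its call with quantile normalization (0.0625), with a variance trend (0.0612) and without any array other than wild type replicate 1 (0.0885 to 0.131). The other 10 did not pass. Of the 17 transcription factors, Snapc3 and Brf1 fell and Snapc2 rose. Snapc3 encodes a subunit of the complex that binds the proximal sequence element, and it stood at 5.93, 5.47 and 5.89 on knockout arrays 1, 2 and 3, against 6.43, 6.77 and 6.80 on wild type arrays 1, 2 and 3. It fell by 0.90 (SE 0.17, limma adjusted p = 0.00817), with no overlap between groups, whereas Snapc2 of the same complex rose by 0.70 (adjusted p = 0.0110). Brf1, a factor for transfer RNA genes, fell by 0.50 (adjusted p = 0.0281) and lost its call with median centring (0.0732) and in 4 of the fits without an array (0.0627 to 0.103). Snapc2 lost its call without knockout replicate 2 (0.0544).

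Of 14 genes of Integrator, the complex that cuts the ends of U11 and other small nuclear RNAs, 3 rose and 1 fell (21.4% and 7.14%, against 10.4% and 6.18% of all genes). Ints4, part of its cleavage module, rose 2.69-fold to 6.99 ± 0.06 in the knockout, against 5.57 ± 0.09 in wild type (SD, n = 3 each, limma adjusted p = 0.000323). Ints9 of the same module rose 1.54-fold and Ints12 1.70-fold (adjusted p = 0.0151 each), and both lost their calls without knockout replicate 1 or 2 (0.0585 to 0.0698). Ints10 fell by 1.09 (SE 0.18, adjusted p = 0.00526). In the list of the nuclear exosome and RNA end trimming 2 of 21 genes rose and 0 fell, or 9.52% against 10.4% of all genes called higher. They were Exosc8, an exosome ring subunit, 1.91-fold (adjusted p = 0.00693), and Usb1, an exonuclease that trims U6 RNA, by 0.69 on the log2 scale (0.0167), which lost its call without knockout replicate 1 or 2 (0.0539 and 0.0745).

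The facing genes of Rpph1, Rmrp and Rn7sk did not pass the test. Parp2, which encodes a DNA repair enzyme and faces Rpph1 across the 125 bases printed above, read 4.03, 4.43 and 4.14 log2 units on knockout arrays 1, 2 and 3, against 3.99, 4.44 and 4.50 on wild type arrays 1, 2 and 3. The groups overlapped, with a difference of -0.11 (SE 0.17, limma adjusted p = 0.742). The 95% interval of Parp2 was -0.50 to 0.29, beside a difference of -3.03 for Rpph1. The cause of the gap between these 2 genes was not tested. Ccdc107, facing Rmrp, read 4.03, 4.21 and 4.20 on knockout arrays 1, 2 and 3, against 4.42, 4.86 and 4.56 on wild type arrays 1, 2 and 3. These groups did not overlap, and the difference of -0.46 (95% interval -0.79 to -0.14) had an adjusted p of 0.0613. It passed with quantile normalization (0.0461), without the dimmest 50% of genes (0.0455) and without wild type replicate 1 (0.0354). C920006O11Rik, a long noncoding RNA gene facing Rn7sk, gave -0.19 (95% interval -0.45 to 0.07, adjusted p = 0.321), with groups that did not overlap and values below the array medians.

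**Figure D4:**
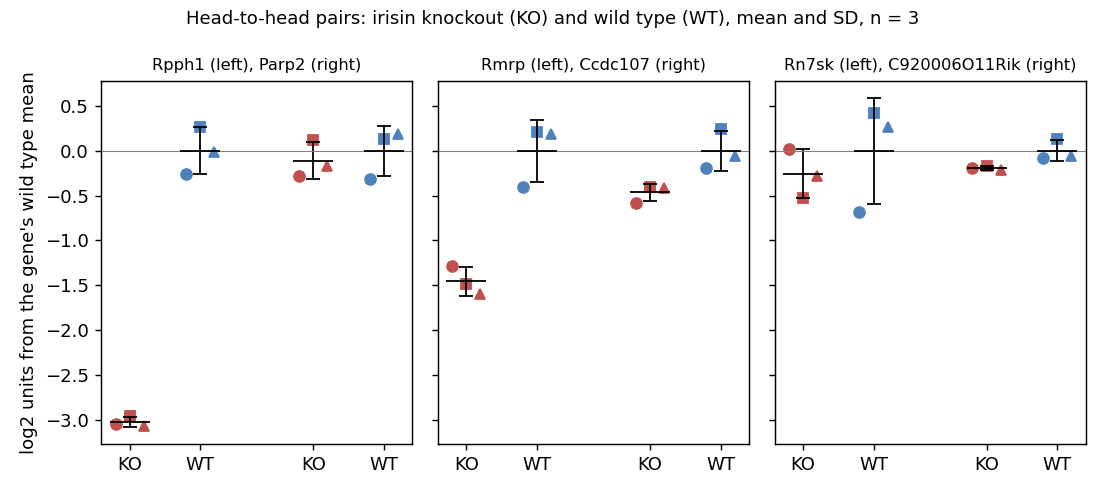
Values of 3 structural RNAs and of the gene that faces each, in log2 units from that gene's own wild type mean (vertical axis), with knockout (KO) left of wild type (WT); points are arrays, lines are means and bars are the SD (n = 3). Rpph1 differs by -3.03 and Parp2 by -0.11, Rmrp by -1.46 and Ccdc107 by -0.46, and Rn7sk by -0.26 and C920006O11Rik by -0.19.

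Neighbours were the nearest genes with a row on either side of the 7 RNA genes, short RNAs left out. Genes without a row may lie closer. Of these 12 distinct neighbours, 1 rose, 1 fell and 10 did not pass. Thus 16.7% were called, near the 16.6% of all genes called in either direction. Taf12, which encodes a subunit of the transcription factor TFIID and lies 4168 bases from Rnu11, rose by 0.39 (limma adjusted p = 0.0386), opposite in sign to Rnu11. Ezh2, a histone methyltransferase gene 192799 bases from Rny1, fell by 0.58 (adjusted p = 0.0157). Both calls were lost without any 1 knockout array, with adjusted p of 0.107 to 0.118 for Taf12 and 0.0513 to 0.0648 for Ezh2, and that of Taf12 also with quantile normalization (0.183), with a variance trend (0.0545) and without wild type replicate 2 or 3 (0.0880 and 0.0829). Between Rnu11 and its other neighbour, Gmeb1, lay 8469 bases, and Gmeb1 gave -0.05 (95% interval -0.50 to 0.40). The others were Ccnb1ip1 (-0.43), Sit1 (-0.04), Cilk1 (0.12), Pdia4 (0.25), Fcgr1 (-0.29) and BC107364 (-0.38), each with an adjusted p above that of Ccdc107. Ccnb1ip1, Sit1 and BC107364 read under the array medians on every array.

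Genes whose pattern over the 6 arrays was most like the average of the structural RNAs were Snhg20, Parp6, Cox4i1, Safb2 and Rbm5. Pearson's r was 0.999 for Snhg20, a snoRNA host gene, and 0.998 for Parp6, a relative of Parp2. For Cox4i1, a subunit of cytochrome c oxidase, r was also 0.998, and for the RNA-binding protein genes Safb2 and Rbm5 it was 0.998 and 0.997. The points are 6 arrays in separate groups, so a gene that is lower in the knockout on every array tends to have a high r. In all, 393 of 11587 genes with a mean above the median of all genes had r above 0.95. Snhg20 stood at 3.55, 3.43 and 3.53 on knockout arrays 1, 2 and 3, against 4.42, 4.94 and 4.83 on wild type arrays 1, 2 and 3, and so shared the order of the wild type arrays.

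Markers of several cell types also differed between the groups. The 10 cardiomyocyte markers were bright on every array, with a lowest single value of 9.46 and a mean level of 11.18 to 11.26 in the knockout and 10.88 to 11.37 in wild type, and 1 of 10 rose. Against 10.4% of all genes called higher and 6.18% called lower, that is 10% of the cardiomyocyte markers. Smooth muscle markers fell for 5 of 5 (100%), with a mean level of 4.57 to 5.11 in the knockout and 6.39 to 8.62 in wild type. Fibroblast markers fell for 5 of 8, or 62.5% (6.34 to 6.48 in the knockout, 6.89 to 7.74 in wild type), endothelial markers for 2 of 6, or 33.3% (6.95 to 7.27 in the knockout, 7.47 to 7.62 in wild type) and 1 of 6 macrophage markers, Mrc1, fell (4.20 to 4.33 in the knockout, 4.41 to 4.55 in wild type). Pericyte markers rose for 3 of 5, or 60% (7.28 to 7.45 in the knockout, 6.48 to 6.86 in wild type). Both red blood cell markers, Hbb-bs and Alas2, stayed short of the adjusted threshold (mean 2.59 to 3.15 in the knockout, 3.01 to 5.07 in wild type), and Hbb-bs alone had an interval below 0 (-1.74 to -0.27). The lowest single value of any marker, 0.721, was of Hbb-bs, and no marker was at 0. Among wild type arrays 1, 2 and 3, the smooth muscle means were 7.51, 6.39 and 8.62 and the fibroblast means 7.74, 6.89 and 7.69, lowest in replicate 2, where each of the 6 structural RNAs was highest. The cardiomyocyte means of the same arrays were 10.88, 11.37 and 11.21, in the same order of arrays as the averaged structural RNAs. The red blood cell means were 3.01, 5.07 and 3.15, with both genes highest in replicate 2. The order of replicates 1 and 3 in these means came from Hbb-bs alone, which lay under the array medians on both. Alas2 was slightly lower in replicate 3 than in replicate 1, so no shared order is read from the red blood cell means. The endothelial means of wild type arrays 1, 2 and 3 were 7.47, 7.62 and 7.58, also in the order of the averaged structural RNAs. The macrophage mean was highest in replicate 2 as well (4.55), and the pericyte mean was highest in replicate 3 (6.86). The part of these markers' cells in the lower values of the structural RNAs was not tested.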

How the data were processed

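The values deposited by the authors are log2 RMA summaries, one per probe set and array. Per the submitters' processing notes, the tools were affy 1.61.0 and R 3.6.0. The RNA was total RNA extracted with TRIzol and labelled with the WT Plus kit, per the labels' protocols. No probe set definition or build was found in the labels or headers, and the log2 scale was inferred from the range of values. Of 25206 rows, 23185 have 1 symbol in the platform annotation, 0 have several and 2021 have none; unnamed rows were not tested. Positions, gene types and promoter windows came from RefSeq tables of GRCm38.p6.

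Genotype was tested with limma 3.58.1 (lmFit and eBayes, R 4.3.3), two-sided, with Benjamini-Hochberg adjustment over the 23185 genes, a threshold of 0.05 and no filter; the code was tested on simulated data. Differences are knockout minus wild type. Low values are not told apart from background, and the number of arrays, 3 per group, limits precision. In each partner list the genes past the threshold were named, up to 4 in order of p, and in a list with none the 2 of lowest p; the fifth gene of RNase P and MRP proteins, and genes named for their role, came after their values were seen. The RNAs, lists and alternatives were chosen with earlier results of these data known.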

Additional observations from a re-analysis of the deposited data

How the results depend on the processing

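The differences of the 6 structural RNAs kept their sign in each alternative that could be computed. The median over the 6 RNAs ran from -1.33 to -0.95, Rpph1 from -3.23 to -2.89, Rmrp from -1.74 to -1.35, Rnu11 from -2.85 to -2.40, Rny1 from -1.03 to -0.54, Terc from -0.58 to -0.35 and Rn7sk from -0.74 to -0.05. Without the dimmest 50% of genes Terc was not tested, so that median has no value there. Short structural and guide RNAs called lower numbered 81 to 94 of 121 and snoRNAs 71 to 82 of 106 over 15 alternatives, counts added after the data were seen. Most of the 121 are snoRNAs.

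Genes called higher and lower numbered 2416 and 1432, against 3162 and 977 with median centring, 1947 and 1501 with quantile normalization, and 1768 and 938 without both arrays numbered 1. Median centring moved the median of all genes from -0.05 to 0.07. Leaving out each array in turn gave 1403 to 2570 genes higher and 701 to 1593 lower, 7 to 23 partner genes higher and 3 to 6 lower, and 0 to 3 neighbouring genes called. The low counts came without knockout replicate 2 (1403, 701, 7, 3 and 0) and replicate 1 (1534, 740, 9, 3 and 0), and without knockout replicate 3 there were 826 lower and 0 neighbours. Partner genes called lower were 3 with median centring. Neighbouring genes called were 1 with a variance trend and 0 without both arrays numbered 1. Same-numbered knockout and wild type arrays deviated together with correlations across genes of 0.09, 0.05 and 0.07. For arrays of unlike number the correlations ran from -0.12 to 0.05. All were small and the numbers were not taken as pairs, but whether they mark pairs is not settled by these values. With the replicate number as a block, 2247 genes were higher and 1330 lower, 17 and 3 partner genes, and 1 neighbour. Trmt10c, Ccnt1, Terf1, Crcp, Brf1 and Taf12 lost their calls under the block (adjusted p 0.0512 to 0.0824), and 12 named genes lost theirs without both arrays numbered 1 (0.0559 to 0.232). RNase P and MRP protein genes that rose numbered 3 to 5 in all alternatives, with Rpp40, Pop4 and Rpp30 past the threshold in each of the 15.

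Among genes that passed no test, some small differences changed sign: Cilk1 (-0.0081) and Sit1 (0.032) with quantile normalization; Gmeb1 (0.059), Parp2 (0.0034) and Sit1 (0.074) with median centring; and Rnu7 (-0.10) without both arrays numbered 1. Without single arrays Rnu7 ran from -0.16 to 0.14, Gmeb1 from -0.27 to 0.078 and Sit1 from -0.10 to 0.050. Median centring moves every difference by the same amount, with the median of all genes going from -0.05 to 0.07. The sign changes of Gmeb1, Parp2 and Sit1 there follow from that shift. The cause of the other changes was not tested.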
